A study of Mus musculus with 24 samples.

Results

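The 7 genes Gabra2, Gabra3, Gabra4, Gabra5, Gabrb1, Gabrd and Gabrg1 encode subunits of the GABA-A receptor and were taken by gene symbol from RNA-seq tables of mouse striatum that share 24340 gene names. Striatum was compared in 24 male mice, wild type (WT) littermates or hemizygous R6/1 mice, which express an expanded CAG repeat within human HTT exon 1 on a C57BL/6J background and model Huntington's disease. Mice received either vehicle (DMSO in saline) or RGFP109, an inhibitor of the histone deacetylases HDAC1 and HDAC3. Injections of 30 mg/kg were given into the peritoneum 5 times a week for 3 weeks. Animals were 11 to 14 weeks old when injections began and 14 to 17 weeks old at the end. The groups were WT-vehicle (n = 5), R6/1-vehicle (n = 6), WT-RGFP109 (n = 6) and R6/1-RGFP109 (n = 7), and tissue was taken 18 h after the last injection. All groups, vehicle included, were injected, and the human transgene transcript was not analysed here.

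GABA-A receptors are chloride channels built from several subunits around a pore, typically alpha and beta subunits with a gamma or delta subunit. The alpha subunit sets much of the sensitivity to GABA and to benzodiazepines. Many receptors with a gamma subunit gather at synapses, whereas those with delta, often beside alpha4, lie mostly outside the synapse and carry a tonic current. The striatum consists mostly of projection neurons that release GABA themselves, and delta and alpha4 are known to be abundant there.

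The 6 pairwise tables each gave 1 pooled expression value per gene and group, in FPKM (fragments scaled to transcript length and to library size, so that levels of different genes can be compared). No value per mouse was given, so no standard deviation, test or p-value is reported, and each difference lacks a replicate check. Read counts were not given either, so the depth behind each value is unknown. A group level below is the geometric mean of the values in the 3 tables that hold that group. These 3 values differed by 3.06% to 3.96% for the members, which reflects table scaling and is not a biological error. Log2 ratios were taken within the table of the pair after adding 0.05 FPKM, and a gene was counted as past the fold at an absolute log2 ratio above 0.5. All 7 members passed the filter on low values, a mean of at least 1 FPKM over the 4 groups, as did 13715 genes in all.

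Genes for 6 of the 7 members lie beside other subunit genes (build mm10, coordinates as deposited). Gabrg1 (chr5:70751047-70842617), Gabra2 (chr5:70961057-71095849), Gabra4 (chr5:71569734-71658308) and Gabrb1 (chr5:71700016-72137244) formed 1 cluster of 1.39 Mb. Gabra5 (chr7:57387272-57510009) lies beside Gabrg3, and Gabra3 (chrX:72432676-72656246) between Gabre and Gabrq. Gabrd (chr4:155384979-155398069) stands alone, with the nearest subunit gene, Gabrr1, 122200 kb away. From the GENCODE M21 annotation the coding transcript with the longest coding sequence was taken for each member, and had 9 or 10 exons. Exons of this transcript made up 14.6% of the compact Gabrd gene on the minus strand and 0.799% to 5.21% of the other members. The annotated start of Gabrb1 on the plus strand overlaps the start of Gabra4 on the minus strand by 196 bases, a region outside the Gabrb1 locus of the deposited tables. By whole gene spans, Gabra3 spans Mir105 and Mir767, and Gabra5 overlaps Gm9962. Whether these overlaps reach exons, where the assignment of reads could be uncertain, was not checked.

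Start regions differed in their content of CpG dinucleotides, the sites of DNA methylation, even between neighbours in the chromosome 5 cluster. RefSeq windows from 250 bases before to 50 bases after the transcript start were at hand for 6 members (build GRCm38.p6). Gabra2 and Gabrg1 are printed because they lie next to each other and had many and few CpG. They were chosen after their sequences were seen. Both are on the minus strand, written 5′ to 3′ with each CpG in capitals, at chr5:71095800-71096099 for Gabra2 and chr5:70842568-70842867 for Gabrg1.
Gabra2: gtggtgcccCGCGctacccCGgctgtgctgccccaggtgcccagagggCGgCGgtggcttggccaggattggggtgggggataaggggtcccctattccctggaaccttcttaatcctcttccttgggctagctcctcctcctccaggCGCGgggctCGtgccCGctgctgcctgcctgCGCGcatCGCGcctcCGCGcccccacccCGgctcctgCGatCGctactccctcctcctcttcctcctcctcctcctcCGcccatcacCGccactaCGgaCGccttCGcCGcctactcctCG
Gabrg1: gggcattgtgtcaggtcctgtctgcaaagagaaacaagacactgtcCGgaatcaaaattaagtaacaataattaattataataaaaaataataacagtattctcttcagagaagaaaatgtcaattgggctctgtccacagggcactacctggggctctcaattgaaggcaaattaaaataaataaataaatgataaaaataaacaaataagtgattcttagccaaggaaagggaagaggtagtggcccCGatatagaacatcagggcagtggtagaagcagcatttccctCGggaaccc
The Gabra2 window held 25 CpG and 70.0% G and C, and the Gabrg1 window 3 CpG and 38.3%. Gabra4 had 12 CpG, Gabra5 had 13, Gabrb1 had 25 and 9 in its 2 windows, and Gabra3 had 0 in both of its windows. The median over 32851 windows was 7 CpG. On both strands, the cyclic AMP response element TGACGTCA was in 0 of the members' windows and in 1.79% of all windows. The EGR motif GCGTGGGCG was likewise in 0 of the members' windows, against 0.612% of all. These matches describe the letters of the windows and were not related to expression.

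Of the 7 genes, Gabrd, which encodes the delta subunit, separated the genotypes and the others did so far less. It stood at 82.15 FPKM in WT-vehicle and 76.9 FPKM in WT-RGFP109, and at 29.4 FPKM in R6/1-vehicle and 28.7 FPKM in R6/1-RGFP109. Both R6/1 groups were thus below both WT groups, with or without the inhibitor. In WT striatum Gabrd was the highest of the members, at 14.3 times Gabrg1 with vehicle and 11.0 times with RGFP109. In both R6/1 groups it ranked 3, behind Gabra4 and Gabra3.

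The alpha subunit genes kept to narrow ranges. Gabra4, the usual partner of delta, was at 33.4 FPKM in WT-vehicle, 35.5 FPKM in WT-RGFP109, 34.2 FPKM in R6/1-vehicle and 31.6 FPKM in R6/1-RGFP109. Gabra3, an alpha subunit gene of benzodiazepine-sensitive receptors, was at 30.2, 32.3, 31.4 and 32.4 FPKM in the same order of groups. Only in R6/1-RGFP109 was Gabra3 listed above Gabra4, a difference for which no replicate error could be given. Gabra5, a subunit best known from extrasynaptic receptors of the hippocampus, was at 17.8, 18.5, 18.5 and 21.0 FPKM, so WT and R6/1 levels were interleaved. Gabra2, a synaptic subunit tied to the anxiolytic action of benzodiazepines, was at 11.8, 13.0, 11.6 and 10.8 FPKM. Both R6/1 levels of Gabra2 were below both WT levels, but by far less than for Gabrd. With vehicle its ranges over the tables overlapped, 11.45 to 11.86 FPKM in R6/1-vehicle and 11.52 to 11.96 FPKM in WT-vehicle.

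Gabrb1, a beta subunit gene, and Gabrg1, a gamma subunit gene with glial as well as neuronal expression, were the lowest members in every group. Gabrb1 was at 8.76 FPKM in WT-vehicle, 9.18 FPKM in WT-RGFP109, 11.2 FPKM in R6/1-vehicle and 10.1 FPKM in R6/1-RGFP109. Both R6/1 levels of Gabrb1 were above both WT levels. Gabrg1 was at 5.76 FPKM in WT-vehicle and at 6.94, 6.97 and 7.10 FPKM in R6/1-vehicle, WT-RGFP109 and R6/1-RGFP109, so WT-vehicle stood below the other groups. The order from Gabra5 through Gabra2 and Gabrb1 to Gabrg1 was the same in all 4 groups, and the closest neighbours were Gabra2 and Gabrb1 in R6/1-vehicle.

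**Figure D1:**
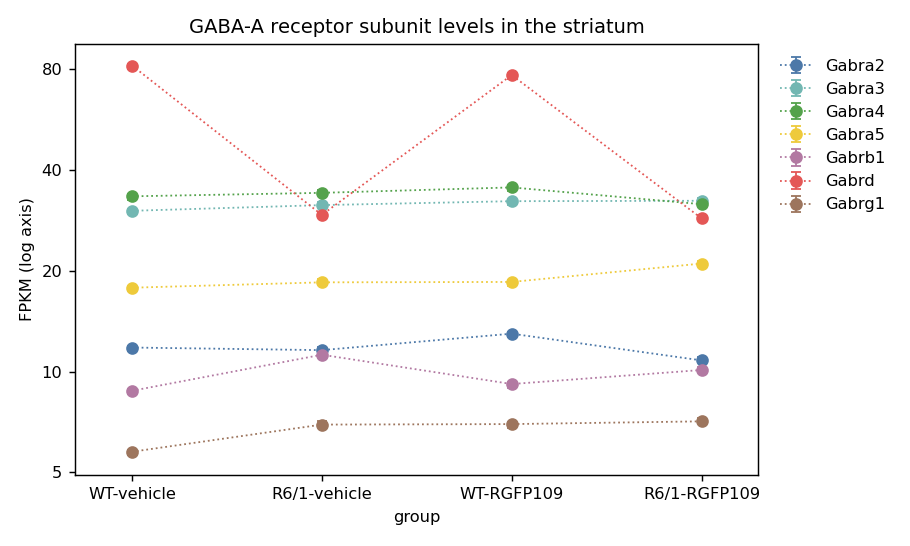
Level of each of the 7 subunit genes (FPKM, log axis) in the 4 groups; points are geometric means over the 3 tables of a group, bars the lowest and highest of the 3 (mostly within the symbol), and dotted lines only join points of 1 gene. Gabrd lies at 82.15 and 76.9 FPKM in the WT groups and at 29.4 and 28.7 FPKM in the R6/1 groups, while the other genes run nearly level.

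The first comparison asked how the R6/1 striatum differed from WT with vehicle alone. In the table of this pair Gabrd was at 29.05 FPKM in R6/1-vehicle and 83.05 FPKM in WT-vehicle, which is 35.0% of the WT value (log2 ratio -1.51). Counted from the most reduced, Gabrd ranked 174 of the 13715 genes. It was 1 of 7 members lower past the fold, against 10.1% of all genes, and 0 of 7 were higher past the fold, against 3.95%. The other 6 log2 ratios ran from -0.06 for Gabra2 to 0.32 for Gabrb1, and those of Gabra3, Gabra4 and Gabra5 were 0.02, 0.0021 and 0.02. Gabrb1 was at 11.1 FPKM against 8.86 FPKM in WT-vehicle, and Gabrg1 at 6.86 against 5.82 FPKM (log2 ratio 0.23). The median log2 ratio of the 7 members was 0.02, beside -0.0039 for all genes.

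The second comparison put the same question to separate mice, all of which had received RGFP109. Gabrd was at 28.4 FPKM in R6/1-RGFP109 and 77.99 FPKM in WT-RGFP109, 36.5% of the WT value (log2 ratio -1.45, rank 181 from the most reduced). Again 1 of 7 members was lower past the fold (8.68% of all genes) and 0 were higher (3.51%). Gabrd was thus among the 6.42% of genes lower past the fold in both pairs of groups, which share no mice. The difference between its 2 log2 ratios was 0.06, smaller than the median absolute difference of 0.09 over all genes. Gabra2 had the lowest ratio of the other members, -0.30, at 10.7 FPKM against 13.2 FPKM in WT-RGFP109. Gabra4 followed at -0.20 (31.3 against 36.0 FPKM), and Gabra5 was the highest at 0.15. The log2 ratio of Gabrb1 was 0.11 and that of Gabrg1 -0.0063. The median of the members was -0.03, beside 0.0097 for all genes.

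**Figure D2:**
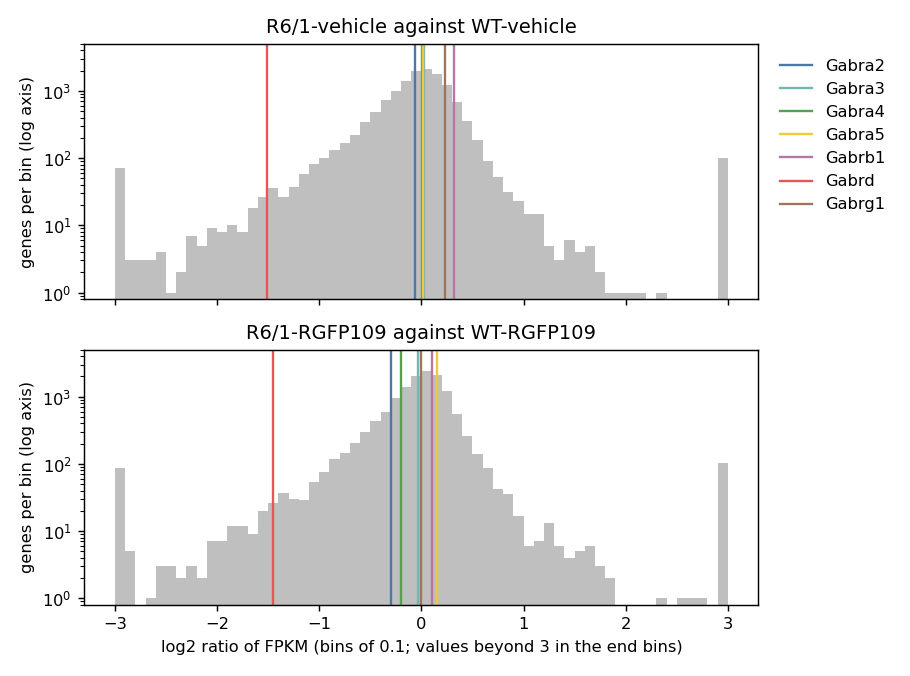
Number of genes (log axis, of 13715) per bin of 0.1 in log2 ratio of R6/1 to WT, with vehicle (top) and with RGFP109 (bottom); coloured lines mark the 7 subunit genes. Gabrd lies in the lower tail of both panels, at -1.51 and -1.45, the other members lie between -0.30 and 0.32, and the end bins also collect genes listed at 0 FPKM in 1 group.

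The level of Gabrd in treated R6/1 mice also stayed low beside untreated WT mice. It was at 28.4 FPKM in R6/1-RGFP109 and 83.3 FPKM in WT-vehicle, a log2 ratio of -1.55, and at 37.4% of WT-RGFP109 in R6/1-vehicle (log2 ratio -1.42). In each of these crossed pairs Gabrd was 1 of 7 members lower past the fold, beside 10% and 8.73% of all genes. The log2 distance of R6/1 Gabrd from WT-vehicle was closed by -2.41% with RGFP109, that is, not narrowed. These pairs share groups with the comparisons above and are given beside them only.

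The remaining comparisons addressed the inhibitor within each genotype. In R6/1 mice 0 of 7 members were past the fold in either direction, beside 3.03% of all genes. Gabrd was at 29.3 FPKM with RGFP109 and 30.0 FPKM with vehicle (log2 ratio -0.04). Gabra5 had the highest ratio, 0.18, at 21.5 FPKM against 18.9 FPKM, and Gabrb1 the lowest, -0.15, at 10.3 FPKM against 11.5 FPKM. The median absolute log2 ratio of all genes was 0.05 and the 95th percentile 0.32, so each member lay inside that percentile.

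In WT mice 0 of 7 members were past the fold, beside 3.81% of all genes. Gabrd was at 75.0 FPKM with RGFP109 and 80.2 FPKM with vehicle (log2 ratio -0.10). The other 6 members all had ratios above 0, from 0.06 for Gabra5 to 0.27 for Gabrg1, which was at 6.80 FPKM with RGFP109 and 5.63 FPKM with vehicle. The median of the 7 was 0.09, beside -0.0018 for all genes, for which the 95th percentile of the absolute ratio was 0.40. In R6/1 mice, by contrast, ratios of 3 members were above 0 and those of 4 below.

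The genotype ratio was lower under RGFP109 than with vehicle for 5 of 7 members, beside 47.6% of all genes, and higher for Gabra5 and Gabrd. For Gabra2, Gabra4, Gabrb1 and Gabrg1 the 2 ratios differed by -0.24, -0.20, -0.22 and -0.24. Between 79.8% and 84.1% of all genes differed by less than these 4 genes, and the 95th percentile was 0.54. This gap is by construction the same quantity as the difference between the inhibitor's ratios in R6/1 and WT mice, so the sets of values are not separate evidence. No test of the gap was possible.

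**Figure D3:**
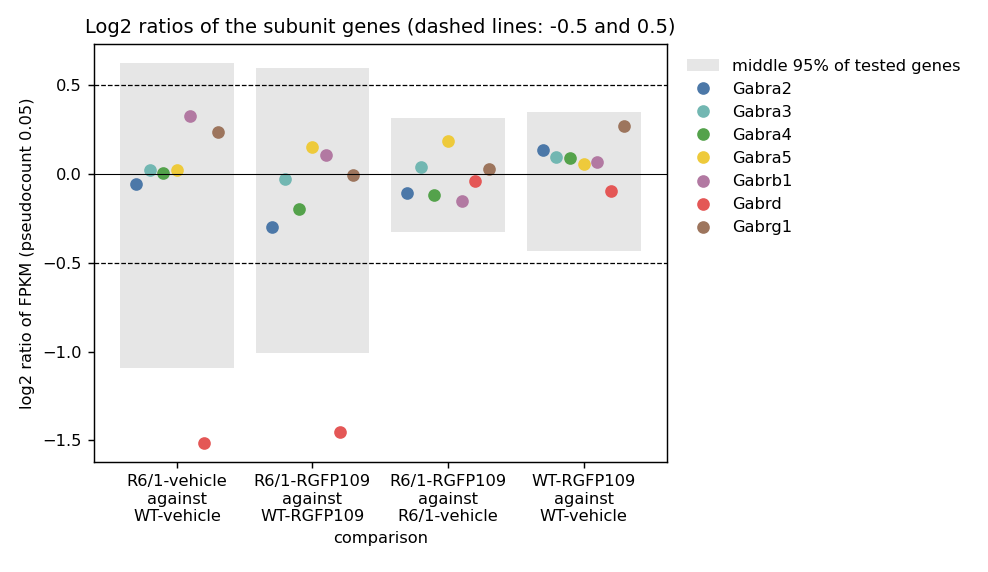
Log2 ratio of FPKM (pseudocount 0.05) of the 7 subunit genes in the genotype comparisons (left) and inhibitor comparisons (right); grey boxes span the middle 95% of all tested genes and dashed lines mark -0.5 and 0.5. Gabrd lies outside the grey box in both genotype comparisons and near 0 in both inhibitor comparisons, and the other 6 genes lie inside the box in all 4.

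The level of Gabrd was 2.46 times that of its partner Gabra4 in WT-vehicle and 2.17 times in WT-RGFP109, against 0.859 and 0.907 times in R6/1-vehicle and R6/1-RGFP109. Summed over the 7 members, Gabrd included, levels were 189.9 FPKM in WT-vehicle and 192.4 FPKM in WT-RGFP109, and 143.3 and 141.8 FPKM in the R6/1 groups. The lower R6/1 sums are no general loss over the members, since Gabrd alone was past the fold between the genotypes. Gabrd, the member with the widest range, was thus above Gabra4 in the WT groups and below it in the R6/1 groups.

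Of the further subunit genes given here, none that reached the minimum level was as low as Gabrd in genotype ratio. Gabrb2, a beta subunit gene, had log2 ratios of 0.19 with vehicle and -0.12 with RGFP109. Gabrg3, a gamma subunit gene, was at 0.12 and -0.08. Gabrq, the theta subunit gene, was at 0.38 with vehicle and higher past the fold at 0.54 with RGFP109, from a level near 1 FPKM. Inhibitor ratios of these genes ran from -0.06 for Gabrb2 to 0.20 for Gabrq in R6/1 mice, and from 0.04 for Gabrq to 0.26 for Gabrb2 in WT mice. Gabra6, Gabre, Gabrp, Gabrr1, Gabrr2 and Gabrr3 had a mean below the minimum, though Gabrr2 was at 1.23 FPKM in R6/1-RGFP109. Gabrp was near 0 throughout, at 0.0058 FPKM in WT-vehicle, 0.0050 FPKM in WT-RGFP109 and 0 in both R6/1 groups.

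Genes that assemble, transport and anchor GABA-A receptors showed no shift like that of Gabrd. Of 21 listed, 20 were in the tables and 0 were past the fold in either direction in the genotype and inhibitor comparisons. Of all genes, 10.1% were lower and 3.95% higher past the fold with vehicle, and 8.68% and 3.51% with RGFP109. For the inhibitor, 3.03% of all genes were past the fold in R6/1 mice and 3.81% in WT mice, so 0 of 20 says little there. With vehicle their genotype ratios ran from -0.40 for the kinesin gene Kif5a to 0.43 for the synaptic adhesion gene Slitrk3, with a median of -0.0057. With RGFP109 they ran from -0.39 for Iqsec3, an exchange factor at inhibitory synapses, to 0.43 for radixin (Rdx), which anchors alpha5 receptors, with a median of -0.02.

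The chloride transporters Slc12a5 (KCC2) and Slc12a2 (NKCC1), which set the direction of chloride flow through the receptor, had genotype ratios of 0.04 and -0.11 with vehicle and -0.05 and 0.10 with RGFP109. The GABA-B receptor genes Gabbr1 and Gabbr2 were at -0.16 and -0.15 with vehicle and -0.17 and -0.09 with RGFP109. Of 6 genes of GABA synthesis and uptake, 0 were past the fold in either direction. Beside this, 10.1% of all genes were lower and 3.95% higher with vehicle, and 8.68% and 3.51% with RGFP109, so 0 of 6 sets them little apart. Their median genotype ratio was 0.05 with vehicle, from -0.06 (Slc6a11) to 0.25 (Gad2), and -0.23 with RGFP109, from -0.35 (Slc6a11) to -0.01 (Slc32a1). For 6 of 6 the ratio was lower under RGFP109, beside 47.6% of all genes and 5 of the 7 receptor members. These counts rest on the same pooled group values and are not separate evidence.

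Bulk striatum mixes cell types, and fewer cells of a type cannot be told apart from less RNA per cell. The tissue held striatal projection neuron RNA: all 14 markers listed for these cells were above 0 in every group, the lowest at 19.0 FPKM. Their summed level was 3841 FPKM in WT-vehicle, 3723 in WT-RGFP109, 1581 in R6/1-vehicle and 1438 in R6/1-RGFP109. Of the 14, 10 were lower past the fold with vehicle and 11 with RGFP109, with medians of -1.17 and -1.27 beside -1.51 and -1.45 for Gabrd. Striatal interneuron markers were lower past the fold in 8 and 9 of 9. Their part in the Gabrd difference was not tested.

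Markers of other cells and regions also differed between groups. Astrocyte markers summed to 1158 and 1149 FPKM in WT groups and 820.9 and 822.3 FPKM in R6/1 groups, with 3 of 9 lower past the fold in each genotype comparison. Oligodendrocyte markers summed to 4317, 2416, 3360 and 2739 FPKM in WT-vehicle, R6/1-vehicle, WT-RGFP109 and R6/1-RGFP109, and 4 of 5 were lower past the fold with vehicle against 0 with RGFP109. Neocortical projection neuron markers summed to 363.6, 208.7, 338.3 and 264.1 FPKM, with 7 of 9 lower past the fold with vehicle and 0 with RGFP109. Choroid plexus markers, 8 listed, summed to 1473, 640.3, 318.8 and 40.5 FPKM. Of the 7 that reached the minimum mean, 7 were lower past the fold with RGFP109 in each genotype. No marker in these lists was at 0. Whether these levels bear on the small ratios of Gabra2, Gabra4, Gabrb1 and Gabrg1 was not tested.

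**Figure D4:**
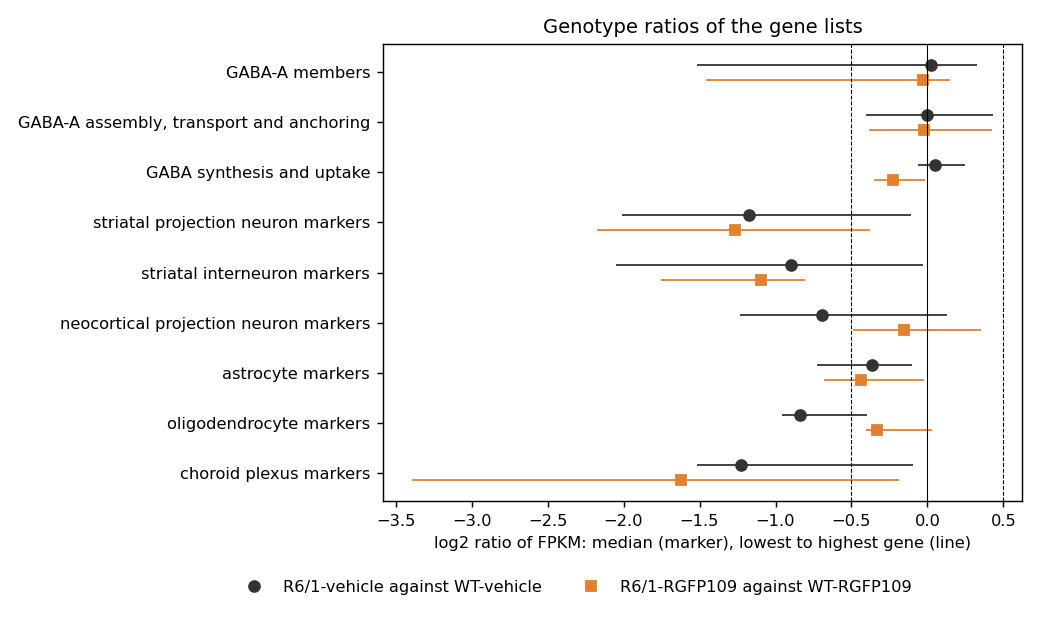
Genotype log2 ratios (R6/1 to WT) of 9 gene lists with vehicle (circles) and with RGFP109 (squares); markers are medians over the tested genes of a list, lines run from its lowest to its highest gene, and dashed lines mark -0.5 and 0.5. The receptor members and the anchoring genes have medians between -0.03 and 0.02, while the striatal projection neuron markers have medians of -1.17 and -1.27.

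Only markers with a mean of at least 1 FPKM were counted. These were 3 of 6 listed for hippocampus, 4 of 8 for hypothalamus, 4 of 7 for thalamus and 2 of 4 for olfactory bulb. Hippocampus markers were lower past the fold in 3 of 3 with vehicle and 2 of 3 with RGFP109. Hypothalamus markers were lower in 4 of 4 with vehicle, and with RGFP109 1 of 4 was lower and 1 higher. Thalamus markers had 1 lower and 1 higher of 4 with vehicle and 0 with RGFP109. Olfactory bulb markers were lower in 1 and 2 of 2, endothelial markers in 1 and 1 of 4, and ependyma markers had 2 of 5 higher in R6/1 than in WT with RGFP109. Between RGFP109 and vehicle, 5 of 5 ependyma markers were lower past the fold in WT mice and 0 in R6/1 mice. In WT mice, 2 of 2 olfactory bulb, 1 of 4 thalamus and 1 of 9 interneuron markers were higher with RGFP109. Of 4 hypothalamus markers in WT mice, 2 were lower and 1 higher. In R6/1 mice, 3 of 4 hypothalamus and 3 of 9 neocortical markers were higher with RGFP109, and 0 were lower. Microglia and oligodendrocyte precursor markers had 0 past the fold in these comparisons. Summed over all listed markers, levels reached at most 12.4 FPKM for hippocampus, 13.5 FPKM for olfactory bulb, 19.96 FPKM for thalamus and 30.6 FPKM for hypothalamus. These were below the neocortical and choroid plexus sums given above.

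The pattern of Gabrd over the 4 groups was matched closely by few genes. Likeness was the Euclidean distance between log2 levels, each gene centred on its own mean over the 4 groups, and only 8 genes lay within 0.1 of Gabrd. The nearest was Hrk, a pro-apoptotic BCL2-family gene, at a distance of 0.03, with 15.5, 5.51, 14.1 and 5.32 FPKM in WT-vehicle, R6/1-vehicle, WT-RGFP109 and R6/1-RGFP109. The next was Lmo2, a LIM-domain transcriptional cofactor, at 0.05, with 37.2, 14.0, 35.6 and 13.3 FPKM. Levels of both genes were lower in each R6/1 group than in either WT group, which follows from their choice by likeness to Gabrd. A fixed distance of 0.1 also admits fewer genes where the range is as wide as that of Gabrd, 1.52 in log2 level.

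The other members had many near neighbours, since 4 points and ranges of 0.10 to 0.36 in log2 level set little apart. Within 0.1 lay 1743 genes for Gabra3, 505 for Gabra4, 406 for Gabrb1, 354 for Gabra5, 255 for Gabra2 and 147 for Gabrg1. The nearest pairs were Akap8 and Cstf2 for Gabra3, Ppargc1b and Rbks for Gabra4, and Klf5 and Rbm12 for Gabrb1. For Gabra5 they were Mast1 and Gm20300, for Gabra2 Ppfia4 and Thg1l, and for Gabrg1 Bcat1 and Nck1, all at distances between 0.0040 and 0.03.

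The position in a cluster did not go with a common genotype ratio of the size seen for Gabrd. The 4 chromosome 5 members ranged from -0.06 to 0.32 with vehicle and from -0.30 to 0.11 with RGFP109. With vehicle, Gabra5 and its neighbour Gabrg3 on chromosome 7 were at 0.02 and 0.12, and Gabra3 and its neighbour Gabrq on chromosome X at 0.02 and 0.38.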

How the data were processed

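Libraries were made with the TruSeq RNA kit from 380 ng of total RNA and sequenced as single reads of 51 bp in pools that each held all 4 groups; neither a pool nor a mouse can be separated in the values used. Per the labels and the methods, the authors aligned reads with STAR 2.5.0b to mm10 and computed FPKM for RefSeq genes with Cufflinks and Cuffdiff 2.2.1. Each of the 6 deposited tables holds 1 pooled FPKM per gene and group, scaled per table (up to 7.16% apart). Their columns of fold change, statistic, p and q are the authors' own comparisons and were not used. Low values were checked for a common step of 1 read: at most 23 of 1048 genes shared a ratio within 0.1%, so no reads could be recovered.

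Ratios, a pseudocount of 0.05 FPKM, the absolute log2 ratio of 0.5 and the minimum mean of 1 FPKM were applied in Python 3.11.15 with pandas 2.3.3, and the code was tested on simulated data. Samples were grouped by their labels. Named genes were all 7 members, the extremes of each GABA list or its genes past the fold, and the 2 nearest genes by likeness. Other subunit genes within the fold and the genes beside Gabrd, named by position, fall outside this rule and were chosen after their values were seen. The members and lists were chosen with earlier results of these data known. Alternatives were another pseudocount, filter, fold, centring and the groups' other tables. No protein sequences were used. Some subunit genes, and sums or shares that include them, are not reported here.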

Additional observations from a re-analysis of the deposited data

How the results depend on the processing

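Of the recomputed counts of members past the fold, 91 stayed within 1.5 times the reported count and 5 did not. Counts with no minimum FPKM or a lower one could not move, because every member already passed the minimum mean of 1 FPKM. The groups' other tables hold the same pooled mice on another scale, so they could hardly move a count either. The 91 is therefore no measure of robustness. The 5 that moved were all at a minimum absolute log2 ratio of 0.25. At that minimum, 1 member was higher in R6/1-vehicle than in WT-vehicle (Gabrb1), 2 were lower in R6/1-RGFP109 than in WT-RGFP109 (Gabra2 beside Gabrd), and 1 was higher in WT-RGFP109 than in WT-vehicle (Gabrg1). In the crossed pairs, 1 was higher in R6/1-RGFP109 than in WT-vehicle (Gabrg1) and 1 in R6/1-vehicle than in WT-RGFP109 (Gabrb1). The construction of the alternative, a lower minimum, accounts for these. At a minimum of 1, Gabrd was still counted in each genotype comparison. Members' log2 ratios shifted by at most 0.0097 with centring on all genes, 0.0020 with the groups' other tables, 0.0022 with no pseudocount and 0.04 with a pseudocount of 1 FPKM. Leaving out mice was not possible, and no paired analysis was possible because each group has 1 pooled value per table. The unknown depth and the lack of values per mouse limit every ratio, most of all the small ones.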

Other observations

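Genes on either side of Gabrd on chromosome 4 were looked up by position. They were the nearest with a mean of at least 1 FPKM, so any nearer gene below that mean was passed over. Prkcz, an atypical protein kinase C gene 23.6 kb away, was at 65.9 FPKM in WT-vehicle and 50.5 FPKM in R6/1-vehicle, with genotype log2 ratios of -0.39 with vehicle and -0.34 with RGFP109. Cfap74, 2.899 kb away, had ratios of 0.13 and 0.36 at levels of 7.90 and 8.63 FPKM in the vehicle groups. Faap20, a Fanconi anaemia pathway gene, had ratios of -0.04 and -0.12. Gnb1, a G protein beta subunit gene, had ratios of -0.01 and 0.0064. None of these 4 genes was past the fold, beside 10.1% of all genes lower past it with vehicle and 8.68% with RGFP109. A count of 0 of 4 therefore sets them little apart from other genes. Their genotype ratios were smaller in size than those of Gabrd.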
